A study of Drosophila melanogaster with 18 samples.

Results

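The genes described here are 10 Drosophila genes that act while a sensory organ is chosen and built: the proneural genes achaete (ac) and scute (sc), the precursor genes asense (ase), senseless (sens), phyllopod (phyl) and neuralized (neur), and the lineage genes prospero (pros), hamlet (ham), shaven (sv) and elav. They were taken by name, as listed proneural and sensory lineage genes, and found by their FlyBase identifiers among 13731 genes with values. RNA was measured in dissected pupal wings in 18 libraries, 3 for each of 6 groups. The groups were E93RNAi+brRNAi (rn-Gal4 with the UAS-brRNAi and UAS-E93RNAi transgenes), E93RNAi (rn-Gal4 with UAS-E93RNAi) and control (rn-Gal4 alone), each at 44 h and at 24 h after puparium formation. Every group therefore carried the rotund driver rn-Gal4, which acts in part of the wing, and each library pooled at least 40 wings, so that cells with and without the driver were measured together. E93, the product of Eip93F, is an ecdysone-induced transcription factor needed for adult differentiation, and the zinc finger proteins of broad (br) act in the pupal stage. By the labels and the title, the design asks which transcripts differ in wings with E93RNAi and which of those differences remain when brRNAi is added. Since no label says that the 3 libraries of a group are separate crosses or collections, the p-values speak only of the variation among these libraries, part of which may be technical. No library of flies with brRNAi alone was analysed here.

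In fly epithelia, ac and sc encode basic helix-loop-helix activators that give clusters of cells the capacity to become sensory organ precursors. Notch signalling then restricts that capacity to a single cell of each cluster, where sens and ase sustain proneural activity, while phyl helps to degrade the repressor Tramtrack and neur promotes Delta endocytosis in the signal-sending cell. The precursor divides asymmetrically, and its descendants are told apart by fate regulators such as pros, ham and sv before neurons turn on the RNA-binding protein Elav. In the wing these organs are the mechanosensory and chemosensory bristles of the margin and the campaniform sensilla of the veins.

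All 10 genes had counts in every library and passed the filter on low counts. Over the 18 libraries they summed to 841 counts for ase, 1254 for phyl, 3644 for sens, 3911 for ac, 5635 for ham, 6356 for sc, 11452 for sv, 14951 for elav, 20657 for pros and 24988 for neur. Positions are from the BDGP6 annotation, the assembly that dm6 names, and are gene spans with introns and UTRs. On chromosome X lie ac (FBgn0000022, 370031 to 370947, plus strand), sc (FBgn0004170, 396060 to 397497, plus strand), ase (FBgn0000137, 460747 to 463176, plus strand) and elav (FBgn0260400, 509235 to 523226, minus strand). On other chromosomes lie sens (FBgn0002573, 3L, 13396228 to 13401125, minus strand), phyl (FBgn0013725, 2R, 14427336 to 14432337, minus strand), neur (FBgn0002932, 3R, 9020348 to 9039471, minus strand), pros (FBgn0004595, 3R, 11328480 to 11407627, plus strand), ham (FBgn0045852, 2L, 18762874 to 18792906, minus strand) and sv (FBgn0005561, chromosome 4, 1088798 to 1113317, plus strand).

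The genes ac and sc are neighbours in the achaete-scute complex, 25.1 kb apart with 0 protein-coding genes annotated between them. From sc to ase the distance is 63.2 kb, and l(1)sc and Pgcl lie between. All 3 sit inside the span of CG32816, which is on the opposite strand and shares 0 exon bases with them. CG32816 itself averaged 123 ± 14.6 CPM (counts scaled to library size by edgeR's TMM method; SD, n = 3) in E93RNAi+brRNAi wings, 31.2 ± 2.86 CPM in E93RNAi wings and 4.21 ± 0.113 CPM in control wings at 44 h, an order of genotypes that none of ac, sc and ase had at that time. Exons of sv share 444 bases with Cals, those of neur 1673 bases with asRNA:CR31429, and those of elav 673 bases with arg and 2994 bases with lncRNA:enrr. Whether the authors counted by strand is not given in the sources used here, so reads of such overlaps cannot be assigned with certainty.

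Library totals ran from 17627937 to 22940404 counts, and 9672 genes were tested. All adjusted p-values below are from edgeR's quasi-likelihood test with Benjamini-Hochberg adjustment over those genes, and a gene is said to be higher, lower, risen or fallen where its adjusted p was under 0.05. The 5 wing markers (vg, nub, rn, sd and bs) summed to 964 to 1052 CPM in E93RNAi+brRNAi, 1119 to 1130 CPM in E93RNAi and 1215 to 1274 CPM in control at 44 h, with no overlap between the genotypes, and to 1508 to 1742 CPM over all libraries at 24 h. At 44 h rn, the gene whose driver all the flies carried, averaged 71.0 ± 2.83 CPM in E93RNAi+brRNAi, 96.5 ± 0.698 CPM in E93RNAi and 52.1 ± 2.02 CPM in control. At the same time vg averaged 220 ± 7.91 CPM in E93RNAi+brRNAi, 254 ± 2.77 CPM in E93RNAi and 161 ± 2.95 CPM in control, while nub averaged 367 ± 26.8 CPM in E93RNAi+brRNAi, 364 ± 8.58 CPM in E93RNAi and 579 ± 23.1 CPM in control. The part of these differences in those of the 10 genes was not tested. The labels were checked on the genes they name. Eip93F averaged 867 ± 55.9 CPM in E93RNAi+brRNAi, 1156 ± 37.7 CPM in E93RNAi and 1285 ± 47.9 CPM in control wings at 44 h. At 24 h it averaged 2368 ± 40.8 CPM in E93RNAi+brRNAi, 2066 ± 193 CPM in E93RNAi and 2077 ± 51.7 CPM in control wings. E93RNAi against control did not pass for Eip93F at 44 h (-0.15, adjusted p = 0.0521) or at 24 h (-0.01, adjusted p = 0.936), and E93RNAi+brRNAi against control was -0.57 at 44 h (adjusted p = 1.52e-07) and 0.19 at 24 h (adjusted p = 0.0213). The genotype names used below are therefore those of the labels, and at 24 h the Eip93F transcript was not lower in either set of libraries labelled for E93RNAi. FBgn0000210 was taken as br from general knowledge of the identifier, since the annotation used does not name it. The length implied by its values was 8173 bases, and the nearest annotated br transcript has 8223 bases. The feature averaged 7.63 ± 1.18 CPM in E93RNAi+brRNAi, 50.2 ± 2.57 CPM in E93RNAi and 1.70 ± 0.645 CPM in control wings at 44 h. At 24 h br averaged 17.9 ± 4.09 CPM in E93RNAi+brRNAi, 95.1 ± 10.9 CPM in E93RNAi and 14.8 ± 1.95 CPM in control wings. Dcr-2, an RNA interference enzyme that the labels do not mention, averaged 52.4 ± 8.32 CPM in E93RNAi+brRNAi wings, 2201 ± 366 CPM in E93RNAi wings and 63.0 ± 4.51 CPM in control wings at 44 h, and at 24 h 141 ± 10.7 CPM in E93RNAi+brRNAi, 5549 ± 424 CPM in E93RNAi and 237 ± 22.1 CPM in control wings. What E93RNAi and any other difference between those flies contribute cannot be told apart. For E93RNAi+brRNAi against E93RNAi, the log2 fold change of Dcr-2 was -5.39 at 44 h and -5.30 at 24 h. Below, added brRNAi or adding brRNAi names that comparison of labels. What brRNAi and any other difference between the RNAi genotypes contribute to it cannot be told apart either. No pair of libraries of a group agreed within sampling noise. E93RNAi replicate 3 at 24 h and E93RNAi+brRNAi replicate 3 at 44 h were the libraries that differed most from the others of their group.

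At 44 h, 8 of the 10 genes were higher in E93RNAi wings than in control wings and the others, neur and elav, did not pass, where 20.6% of all genes tested were higher and 18.9% lower. Between the RNAi genotypes at 44 h, 9 of the 10 were lower in E93RNAi+brRNAi than in E93RNAi wings and sens did not pass. Over all genes 24.9% were higher and 23.9% lower there. Against control at 44 h, E93RNAi+brRNAi wings had 2 of the 10 higher, sens and pros, and 3 lower, neur, sv and elav, where 23.0% of all genes were higher and 22.6% lower. With library totals in place of TMM, 33.7% of all genes were higher and 12.9% lower in E93RNAi against control, 15.7% higher and 45.5% lower in E93RNAi+brRNAi against E93RNAi, and 19.4% higher and 30.6% lower in E93RNAi+brRNAi against control. The median log2 fold change of the 10 genes was 1.03 for E93RNAi against control (0.005 over all genes), -0.25 for E93RNAi+brRNAi against control (-0.006 over all genes) and -0.85 for E93RNAi+brRNAi against E93RNAi (-0.012 over all genes). Each group of libraries enters 2 of these 3 comparisons, so their values are set side by side and not treated as separate evidence. In bulk wings, fewer cells of a type and less RNA per cell cannot be told apart.

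At 24 h the differences were fewer against control. In E93RNAi wings 5 of the 10 genes were higher than in control wings, namely sens, ase, sv, neur and elav, and the others did not pass, where 21.7% of all genes were higher and 22.2% lower. In E93RNAi+brRNAi wings 2 were higher than in control wings, neur and sv, and 2 were lower, pros and ham, where 14.7% of all genes were higher and 15.8% lower. Between the RNAi genotypes at 24 h, 8 of the 10 were lower in E93RNAi+brRNAi than in E93RNAi wings and ac was higher, where 20.2% of all genes were higher and 21.1% lower. The median log2 fold change of the 10 genes at 24 h was 0.28 for E93RNAi against control (0.001 over all genes), -0.00 for E93RNAi+brRNAi against control (-0.004 over all genes) and -0.39 for E93RNAi+brRNAi against E93RNAi (-0.015 over all genes).

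**Figure D1:**
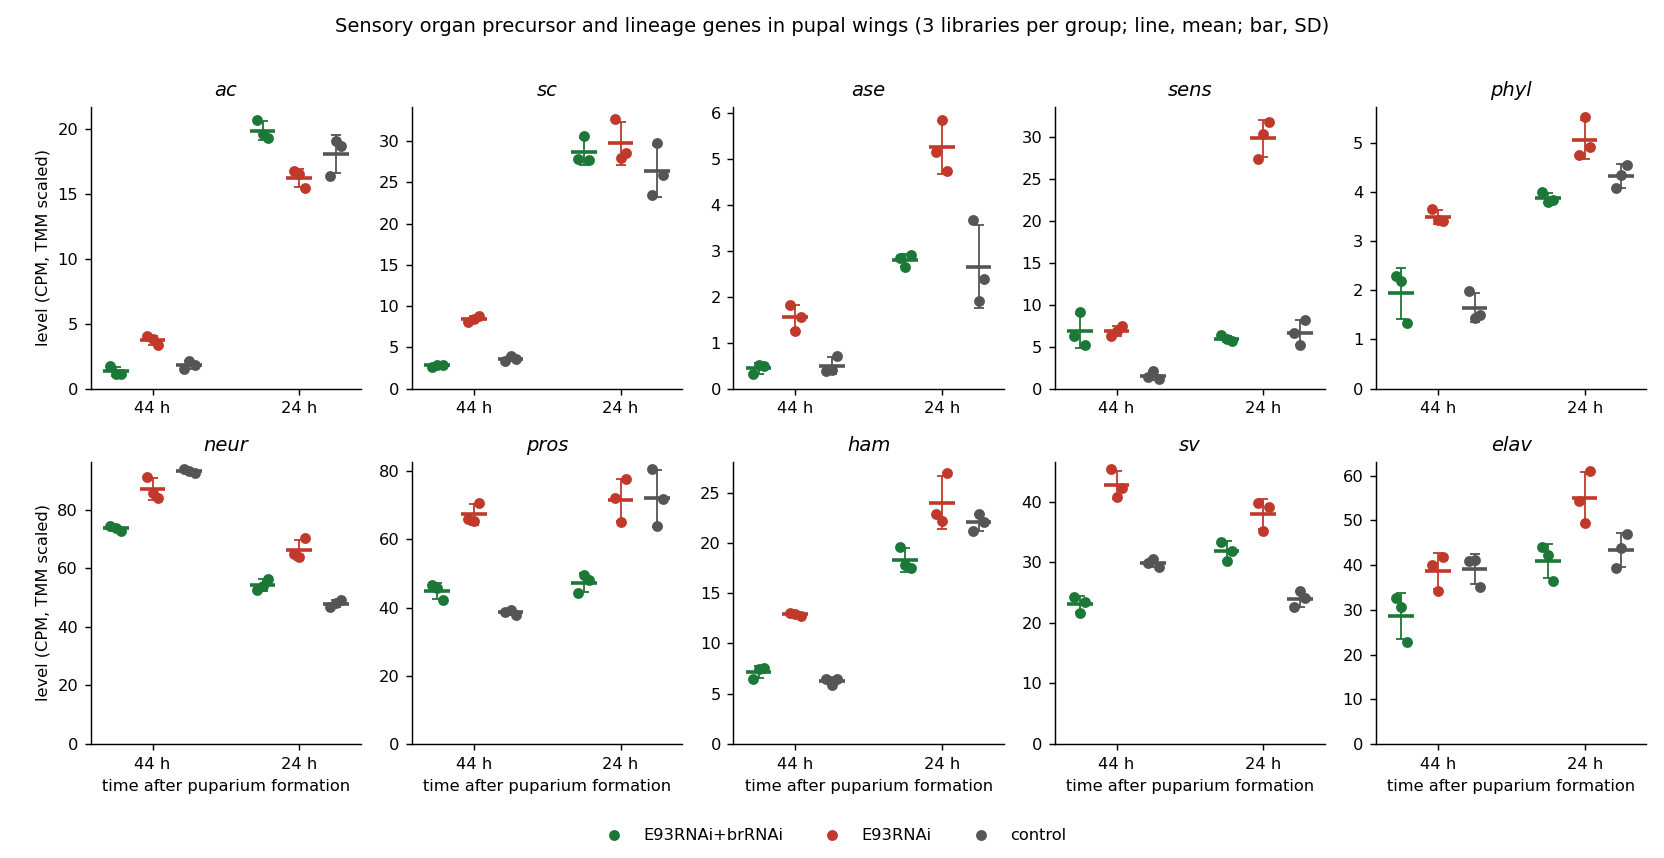
Level of each of the 10 genes in CPM (scaled by TMM) in every library, with 1 panel per gene and its own axis from 0, and groups at 44 h left of groups at 24 h. Points are single libraries, lines are group means and bars are ± SD; sens at 24 h stands at 27.4 to 31.8 CPM in the 3 E93RNAi libraries and at no more than 8.21 CPM in control libraries, while ac and sc are low in all genotypes at 44 h with E93RNAi above the others.

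The proneural genes ac and sc fell together with time in every genotype, and at 44 h both were higher in E93RNAi wings than in the other genotypes. At 44 h ac had 1.73, 1.16 and 1.11 CPM in the E93RNAi+brRNAi libraries, 4.04, 3.79 and 3.34 CPM in the E93RNAi libraries and 1.54, 2.14 and 1.83 CPM in the control libraries. The 24 h libraries had 20.7, 19.6 and 19.2 CPM in E93RNAi+brRNAi, 16.7, 16.5 and 15.4 CPM in E93RNAi and 16.4, 19.1 and 18.7 CPM in control. The E93RNAi libraries thus stood above all others at 44 h without overlap, whereas at 24 h they overlapped with control and lay below E93RNAi+brRNAi. On the log2 scale, ac at 44 h changed by 1.01 ± 0.16 (SE) for E93RNAi against control (adjusted p = 2.67e-05) and -1.49 ± 0.19 for E93RNAi+brRNAi against E93RNAi (adjusted p = 5.44e-07). The 24 h value was -0.15 ± 0.09 for E93RNAi against control (adjusted p = 0.173). For E93RNAi+brRNAi against E93RNAi at 24 h it was 0.29 ± 0.09 (adjusted p = 0.0118), a call that was lost without E93RNAi replicate 3 or without E93RNAi+brRNAi replicate 1 (0.25 each).

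In the case of sc the libraries had 2.65, 2.89 and 2.90 CPM in E93RNAi+brRNAi, 8.08, 8.38 and 8.75 CPM in E93RNAi and 3.29, 3.94 and 3.60 CPM in control at 44 h. At 24 h they had 27.8, 30.6 and 27.7 CPM in E93RNAi+brRNAi, 32.7, 28.0 and 28.5 CPM in E93RNAi and 23.4, 29.8 and 25.9 CPM in control. All 3 genotypes overlapped at 24 h, and at 44 h each E93RNAi library was more than any library of the other genotypes. For sc the log2 fold change at 44 h was 1.21 ± 0.13 for E93RNAi against control (adjusted p = 9.46e-08) and -1.58 ± 0.14 for E93RNAi+brRNAi against E93RNAi (adjusted p = 5.78e-09). Its 24 h value was 0.17 ± 0.08 for E93RNAi against control (adjusted p = 0.093; called without control replicate 2, 0.27) and -0.05 for E93RNAi+brRNAi against E93RNAi (adjusted p = 0.645).

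Neither proneural gene passed in E93RNAi+brRNAi against control. The fold changes at 44 h were -0.48 ± 0.20 for ac (adjusted p = 0.0631) and -0.36 ± 0.16 for sc (adjusted p = 0.0666), close to the threshold and on the lower side of control. The ac value passed without control replicate 1 (-0.58) or without E93RNAi+brRNAi replicate 1 (-0.69), and the sc value passed when either control replicate 1 or control replicate 2 of 24 h was left out of the shared fit (-0.36 each). With library totals in place of TMM both passed, at -0.55 for ac (adjusted p = 0.0299) and -0.44 for sc (adjusted p = 0.0236). At 24 h ac differed by 0.14 (adjusted p = 0.264) and sc by 0.12 (adjusted p = 0.291).

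Among the precursor genes, sens had the largest log2 fold change for E93RNAi against control at both times, and its pattern at 44 h differed from that of the proneural genes. sens encodes a zinc finger factor that marks the selected precursor. At 44 h it had 6.22, 9.18 and 5.23 CPM in E93RNAi+brRNAi, 6.31, 6.83 and 7.43 CPM in E93RNAi and 1.37, 2.14 and 1.11 CPM in control, the last from 25, 43 and 20 counts. In the 24 h libraries sens had 6.35, 5.87 and 5.67 CPM in E93RNAi+brRNAi, 27.4, 30.3 and 31.8 CPM in E93RNAi and 6.61, 5.24 and 8.21 CPM in control. Thus E93RNAi+brRNAi libraries overlapped with control at 24 h and with E93RNAi at 44 h.

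For E93RNAi against control the log2 fold change of sens was 2.13 ± 0.26 at 44 h (adjusted p = 2.71e-07) and 2.15 ± 0.16 at 24 h (adjusted p = 1.09e-09). Adding brRNAi to E93RNAi gave 0.00 ± 0.19 at 44 h (adjusted p = 0.986, 95% interval -0.38 to 0.39) and -2.32 ± 0.16 at 24 h (adjusted p = 4.49e-10). The interval at 44 h leaves out a change of the size seen at 24 h. Against control, E93RNAi+brRNAi stood 2.14 ± 0.26 higher at 44 h (adjusted p = 2.97e-07) and differed by -0.17 at 24 h (adjusted p = 0.541, 95% interval -0.54 to 0.21). The difference between the times was itself called, with an interaction of 2.33 ± 0.24 for added brRNAi (adjusted p = 2.75e-07) and 2.30 ± 0.32 for E93RNAi+brRNAi against control (adjusted p = 3.72e-06). For E93RNAi against control the interaction was -0.02 (adjusted p = 0.974).

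ase, a helix-loop-helix gene of the achaete-scute complex that is turned on in precursors, was the lowest of the 10. Its counts at 44 h were 5, 9 and 9 in E93RNAi+brRNAi, 33, 27 and 27 in E93RNAi and 7, 8 and 13 in control. Those counts correspond to 0.308, 0.520 and 0.501 CPM in E93RNAi+brRNAi, 1.83, 1.26 and 1.55 CPM in E93RNAi and 0.384, 0.399 and 0.720 CPM in control. The E93RNAi libraries stood above the others at both times, with 2.84, 2.65 and 2.90 CPM in E93RNAi+brRNAi, 5.16, 5.86 and 4.73 CPM in E93RNAi and 3.67, 1.92 and 2.39 CPM in control at 24 h. For ase, E93RNAi against control gave a log2 fold change of 1.62 ± 0.35 at 44 h (adjusted p = 0.000434) and 0.99 ± 0.20 at 24 h (adjusted p = 0.000429). With brRNAi added to E93RNAi it was -1.77 ± 0.37 at 44 h (adjusted p = 0.000235) and -0.91 ± 0.19 at 24 h (adjusted p = 0.00083). Against control, E93RNAi+brRNAi wings did not pass at either time, with 95% intervals of -1.07 to 0.76 at 44 h and -0.36 to 0.52 at 24 h.

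phyl, an adaptor for degradation of Tramtrack, had 1.34 to 2.28 CPM in E93RNAi+brRNAi, 3.40 to 3.65 CPM in E93RNAi and 1.44 to 1.98 CPM in control at 44 h. The E93RNAi libraries were above both other genotypes, which overlapped. Its log2 fold change at 44 h was 1.09 ± 0.18 for E93RNAi against control (adjusted p = 4.55e-05) and -0.85 ± 0.18 for E93RNAi+brRNAi against E93RNAi (adjusted p = 0.000467). The 24 h means were 3.87 ± 0.108 CPM in E93RNAi+brRNAi, 5.06 ± 0.404 CPM in E93RNAi and 4.32 ± 0.236 CPM in control, and phyl did not pass against control in either RNAi genotype. Its call in E93RNAi+brRNAi against E93RNAi at 24 h (-0.39 ± 0.14, adjusted p = 0.0345) was lost when E93RNAi replicate 2 or 3, or any of the 3 E93RNAi+brRNAi libraries, was left out (-0.32 to -0.42).

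neur, a ubiquitin ligase acting on Delta, was the only one of the 4 precursor genes that rose with time, and the sign of its fitted E93RNAi difference changed between the times. It had 72.6 to 74.4 CPM in E93RNAi+brRNAi, 83.9 to 91.2 CPM in E93RNAi and 92.4 to 93.8 CPM in control at 44 h, where all 3 genotypes were separate. The levels at 24 h were 52.5 to 56.4 CPM in E93RNAi+brRNAi, 63.7 to 70.2 CPM in E93RNAi and 46.7 to 49.0 CPM in control, again without overlap. Control was thus the highest genotype at 44 h and the lowest at 24 h. The log2 fold change for E93RNAi against control was -0.10 ± 0.05 at 44 h (adjusted p = 0.0983) and 0.47 ± 0.05 at 24 h (adjusted p = 2.37e-07). The 44 h value was 0.01 with library totals in place of TMM, and it passed without E93RNAi replicate 1 (-0.14). For E93RNAi+brRNAi against control it was -0.34 ± 0.05 at 44 h (adjusted p = 5.27e-06) and 0.18 ± 0.05 at 24 h (adjusted p = 0.00795). Adding brRNAi to E93RNAi gave -0.24 ± 0.05 at 44 h (adjusted p = 0.000284) and -0.29 ± 0.05 at 24 h (adjusted p = 8.8e-05).

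**Figure D2:**
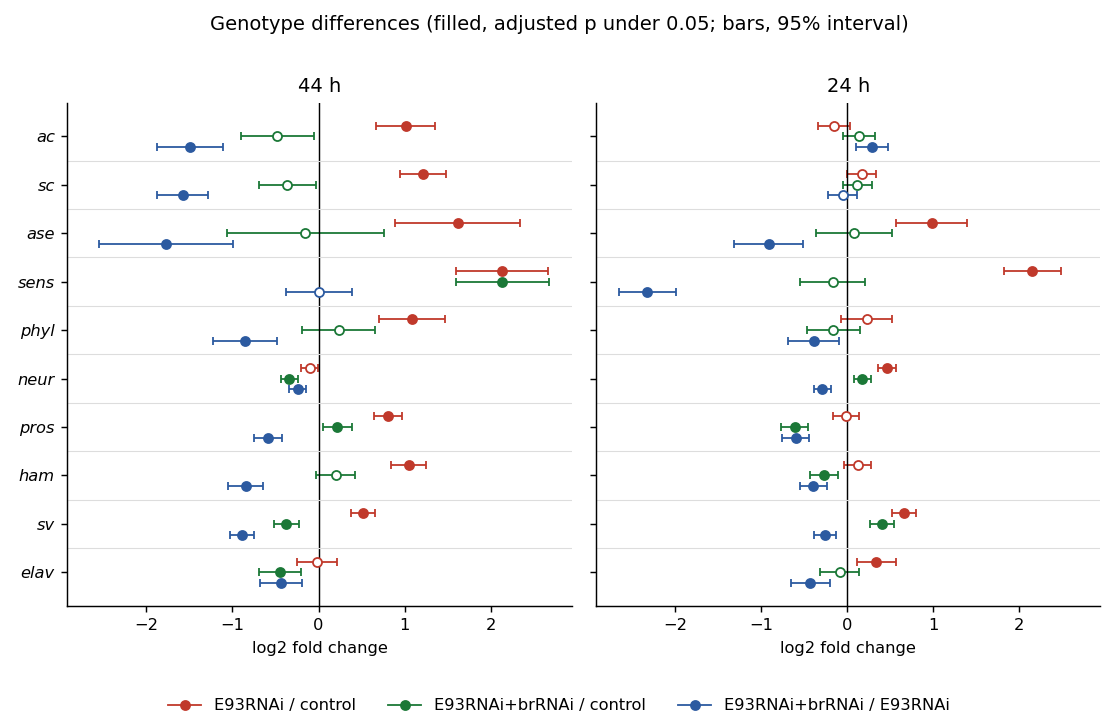
Log2 fold changes of the 10 genes (horizontal axis) in 3 genotype comparisons, at 44 h and at 24 h in separate panels, from the edgeR fit. Points are estimates with 95% intervals, filled where the adjusted p was under 0.05; at 44 h the E93RNAi against control points of 8 genes lie between 0.52 and 2.13, and sens is at 2.14 in E93RNAi+brRNAi against control.

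The lineage genes did not share 1 pattern. pros encodes a homeodomain factor that acts in the pIIb daughter. It had 46.7, 45.7 and 42.3 CPM in E93RNAi+brRNAi, 65.9, 65.4 and 70.8 CPM in E93RNAi and 38.6, 39.4 and 37.7 CPM in control at 44 h. The 24 h libraries of pros had 44.3, 49.6 and 48.1 CPM in E93RNAi+brRNAi, 72.1, 65.3 and 77.6 CPM in E93RNAi and 80.6, 63.8 and 71.9 CPM in control. The E93RNAi libraries therefore overlapped with control at 24 h and stood above it at 44 h, while E93RNAi+brRNAi was below E93RNAi at both times. The log2 fold change for E93RNAi against control was 0.80 ± 0.08 at 44 h (adjusted p = 3.23e-08) and -0.01 ± 0.07 at 24 h (adjusted p = 0.934, a value whose sign differed between scalings). Adding brRNAi to E93RNAi gave -0.59 ± 0.08 at 44 h (adjusted p = 2.59e-06) and -0.60 ± 0.07 at 24 h (adjusted p = 2.75e-06).

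Against control, pros in E93RNAi+brRNAi was 0.22 ± 0.08 at 44 h (adjusted p = 0.0318) and -0.61 ± 0.07 at 24 h (adjusted p = 2.18e-06). The 44 h call was lost without control replicate 1 or 3 or without E93RNAi+brRNAi replicate 1 or 2 (0.20 to 0.22), and with library totals (0.14). The difference between the times passed, at 0.82 ± 0.11 (adjusted p = 3.91e-06).

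ham encodes a zinc finger factor that sets neuron against glia-like fates within the lineage. At 44 h it had 6.47 to 7.51 CPM in E93RNAi+brRNAi, 12.7 to 13.0 CPM in E93RNAi and 5.83 to 6.48 CPM in control. The E93RNAi libraries were about 2.07-fold above control, while E93RNAi+brRNAi just overlapped with control. The log2 fold change was 1.05 ± 0.10 for E93RNAi against control (adjusted p = 2.11e-08) and -0.85 ± 0.10 for E93RNAi+brRNAi against E93RNAi (adjusted p = 4.17e-07). At 24 h ham had 17.5 to 19.6 CPM in E93RNAi+brRNAi, 22.2 to 27.0 CPM in E93RNAi and 21.2 to 22.8 CPM in control. E93RNAi against control did not pass there (0.12 ± 0.08, adjusted p = 0.204), and E93RNAi+brRNAi was lower than E93RNAi (-0.39 ± 0.08, adjusted p = 0.000476). Its call against control at 24 h (-0.27 ± 0.08, adjusted p = 0.0128) was lost without control replicate 2 or without E93RNAi+brRNAi replicate 2 or 3 (-0.23 to -0.24).

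sv encodes the Pax factor of the shaft-making cell. It had 24.2, 21.6 and 23.4 CPM in E93RNAi+brRNAi, 45.3, 40.8 and 42.3 CPM in E93RNAi and 29.9, 30.6 and 29.1 CPM in control at 44 h. For 24 h the values were 33.4, 30.1 and 31.9 CPM in E93RNAi+brRNAi, 39.7, 35.1 and 39.1 CPM in E93RNAi and 22.6, 25.2 and 24.1 CPM in control. All 3 genotypes were separate at both times, and E93RNAi was the highest at both, but E93RNAi+brRNAi was above control at 24 h and below it at 44 h. For sv, E93RNAi+brRNAi against control gave a log2 fold change of -0.37 ± 0.07 at 44 h (adjusted p = 0.000155) and 0.41 ± 0.07 at 24 h (adjusted p = 6.54e-05), and the difference between the times was -0.78 ± 0.10 (adjusted p = 1.37e-06). For E93RNAi against control it was 0.52 ± 0.06 at 44 h (adjusted p = 1.33e-06) and 0.66 ± 0.07 at 24 h (adjusted p = 1.11e-07). Adding brRNAi to E93RNAi gave -0.89 ± 0.07 at 44 h (adjusted p = 8.4e-10) and -0.25 ± 0.06 at 24 h (adjusted p = 0.0032). Cals, whose exons overlap those of sv on the other strand, differed by -0.13 (adjusted p = 0.0682) and 0.15 (adjusted p = 0.0346) for E93RNAi against control at 44 h and 24 h.

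elav, the RNA-binding protein of neurons, had 22.9 to 32.7 CPM in E93RNAi+brRNAi, 34.2 to 41.9 CPM in E93RNAi and 35.2 to 41.2 CPM in control at 44 h. E93RNAi overlapped with control there, and E93RNAi+brRNAi was below both. Its log2 fold change at 44 h was -0.02 ± 0.11 for E93RNAi against control (adjusted p = 0.918), -0.45 ± 0.12 for E93RNAi+brRNAi against control (adjusted p = 0.0036) and -0.43 ± 0.12 for E93RNAi+brRNAi against E93RNAi (adjusted p = 0.0047). The range at 24 h was 36.5 to 44.0 CPM in E93RNAi+brRNAi, 49.5 to 61.2 CPM in E93RNAi and 39.4 to 46.9 CPM in control, so that E93RNAi stood above both other genotypes. The fold changes at 24 h were 0.34 ± 0.11 for E93RNAi against control (adjusted p = 0.015) and -0.42 ± 0.11 for E93RNAi+brRNAi against E93RNAi (adjusted p = 0.00376). The call against control was lost without control replicate 1 (0.28) or without E93RNAi replicate 3 (0.27).

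Other neuron markers are set beside elav. Of 7 tested (nSyb, Syt1, brp, cpx, fne, Rbp9 and Rim), 2 were higher in E93RNAi than in control wings at 44 h, while 1 was higher and 4 were lower at 24 h. Their summed level ran from 147 to 164 CPM in E93RNAi+brRNAi, 196 to 210 CPM in E93RNAi and 153 to 175 CPM in control at 44 h, and at 24 h from 65.5 to 72.5 CPM in E93RNAi+brRNAi, 82.8 to 96.8 CPM in E93RNAi and 86.7 to 118 CPM in control. The higher E93RNAi sum at 44 h was mainly fne, which averaged 91.9 CPM in E93RNAi and 51.6 CPM in control. Means of nSyb, Syt1 and Rim were also higher there in E93RNAi than in control, and those of brp, cpx and Rbp9 were lower. The median log2 fold change of the 7 markers in that comparison was 0.041. Muscle markers moved with the genotypes too. Of 9 tested, 9 were lower in E93RNAi than in control wings at 44 h, while 8 were higher and 1 was lower at 24 h. The lower 1 was Act57B, with 22.1 ± 0.887 CPM in E93RNAi and 42.8 ± 8.72 CPM in control. The sums at 44 h were 632 to 813 CPM in E93RNAi+brRNAi, 387 to 503 CPM in E93RNAi and 759 to 893 CPM in control. At 24 h the sums were 124 to 151 CPM in E93RNAi+brRNAi, 228 to 258 CPM in E93RNAi and 132 to 154 CPM in control. A list for notum and body wall, epithelia that also bear bristles, held 8 genes (pnr, tup, eyg, toe, ush, mirr, ara and caup). They summed to 116 to 129 CPM in E93RNAi+brRNAi, 168 to 183 CPM in E93RNAi and 169 to 187 CPM in control at 44 h. At 24 h they summed to 237 to 242 CPM in E93RNAi+brRNAi, 232 to 259 CPM in E93RNAi and 254 to 290 CPM in control. Most of the sum was mirr, ara and caup in every group, so it is mainly a sum of those genes. At 44 h pnr averaged 2.59 CPM in E93RNAi+brRNAi, 2.57 CPM in E93RNAi and 3.60 CPM in control, and tup 1.51, 2.08 and 2.71 CPM. Other cell types' markers also differed between genotypes at 44 h. Of 5 glia markers, 2 were higher and 3 lower in E93RNAi than in control wings, with sums of 456 to 491 CPM in E93RNAi+brRNAi, 386 to 404 CPM in E93RNAi and 463 to 480 CPM in control. The 2 higher ones were repo and gcm. repo, the defining glial factor, averaged 9.58 ± 1.52 CPM in E93RNAi+brRNAi, 15.5 ± 1.27 CPM in E93RNAi and 9.96 ± 0.455 CPM in control. gcm, which starts the glial fate, averaged 0.876 ± 0.0836 CPM in E93RNAi+brRNAi, 1.42 ± 0.162 CPM in E93RNAi and 0.407 ± 0.0645 CPM in control. The 3 lower ones were moody (30.7 ± 1.72 CPM in E93RNAi, 36.2 ± 1.91 CPM in control), nrv2 (265 ± 9.45 and 317.5 ± 7.28 CPM) and loco (83.1 ± 1.99 and 107 ± 0.919 CPM). Most of the glia sum was nrv2. Both tracheal markers tested were higher in E93RNAi than in control wings, and the 2 summed to 159 to 180 CPM in E93RNAi+brRNAi, 161 to 173 CPM in E93RNAi and 118 to 125 CPM in control. The 4 fat body markers, of which 2 were higher and 2 lower in E93RNAi, summed to 333 to 381 CPM in E93RNAi+brRNAi, 240 to 272 CPM in E93RNAi and 286 to 374 CPM in control. Of 4 hemocyte markers tested 1 was lower in E93RNAi, and the list summed to 56.2 to 59.2 CPM in E93RNAi+brRNAi, 46.3 to 48.6 CPM in E93RNAi and 66.9 to 74.7 CPM in control. No marker of these lists was at 0 in any group, and their part in the differences of the 10 genes was not tested.

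Between 24 h and 44 h most of the 10 genes fell in every genotype. At 44 h against 24 h, 7 fell and 1 rose in E93RNAi+brRNAi wings, where 38.0% of all genes fell and 37.8% rose. In E93RNAi wings 7 fell and 2 rose, where 36.4% of all genes fell and 38.1% rose, and in control wings 7 fell and 2 rose, where 38.1% fell and 37.1% rose. With library totals 51.5% of all genes fell and 28.7% rose in E93RNAi+brRNAi, and 48.9% fell and 29.1% rose in control. With such a background, a call alone says little of any gene. The medians of the 10 were -0.76 in E93RNAi+brRNAi, -0.72 in E93RNAi and -1.61 in control on the log2 scale, beside 0.003 in E93RNAi+brRNAi, 0.015 in E93RNAi and -0.014 in control over all genes.

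The proneural genes had the steepest fall of the 10 in E93RNAi+brRNAi and control wings, while in E93RNAi wings sens and ac each fell by 2.12 on the log2 scale. The level of ac at 44 h was 6.71% of its 24 h level in E93RNAi+brRNAi, 23.0% in E93RNAi and 10.2% in control wings, which are log2 changes of -3.90 in E93RNAi+brRNAi, -2.12 in E93RNAi and -3.29 in control. That of sc was 9.79% in E93RNAi+brRNAi, 28.3% in E93RNAi and 13.7% in control. Both fell less in E93RNAi than in control, with interactions of 1.17 ± 0.19 for ac (adjusted p = 4.22e-05) and 1.04 ± 0.15 for sc (adjusted p = 1.57e-05). In E93RNAi+brRNAi the fall was steeper than in E93RNAi, with interactions of -1.79 ± 0.21 for ac (adjusted p = 5.18e-07) and -1.53 ± 0.16 for sc (adjusted p = 2.36e-07). The interactions of E93RNAi+brRNAi against control were smaller, at -0.62 for ac (adjusted p = 0.0313) and -0.48 for sc (adjusted p = 0.0357). That of ac was lost without control replicate 1 of 24 h, control replicate 2 or 3 of 44 h, E93RNAi+brRNAi replicate 1 of 24 h or replicate 2 or 3 of 44 h (-0.48 to -0.62). That of sc was lost without control replicate 1 or 3 of 24 h, control replicate 2 or 3 of 44 h, E93RNAi+brRNAi replicate 2 of 24 h or any E93RNAi+brRNAi library of 44 h (-0.41 to -0.51).

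**Figure D3:**
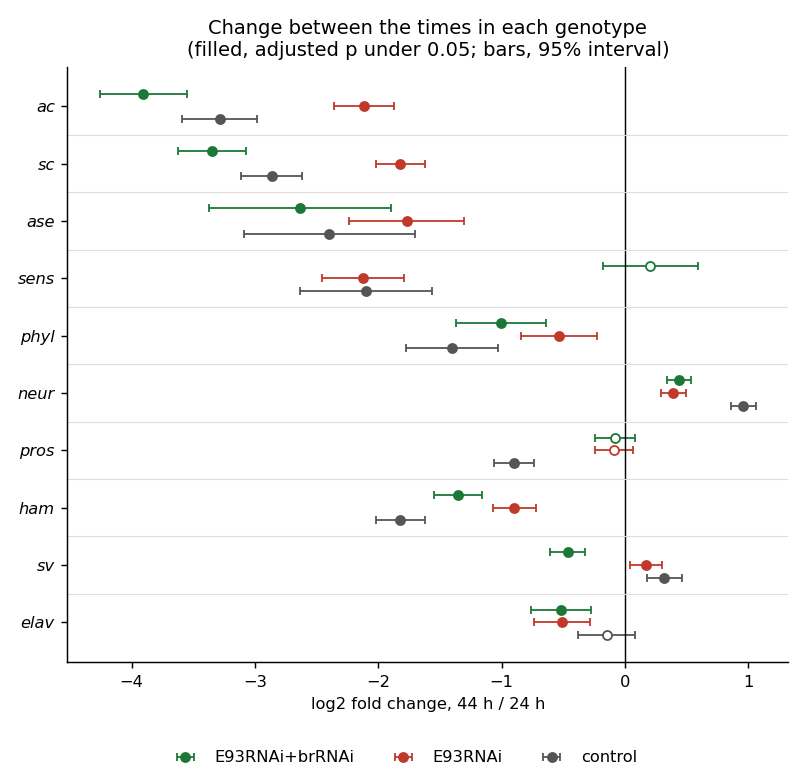
Log2 change of each of the 10 genes at 44 h against 24 h in each genotype, from the edgeR fit, with 95% intervals and filled points where the adjusted p was under 0.05. ac and sc lie lowest in E93RNAi+brRNAi and control, with their E93RNAi points at -2.12 and -1.82 above the other genotypes, while sens in E93RNAi+brRNAi is at 0.20 and in both other genotypes near -2.1.

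Precursor genes differed in how they changed with time. sens kept 23.0% of its 24 h level in E93RNAi and 23.1% in control wings, but in E93RNAi+brRNAi it averaged 6.88 ± 2.05 CPM at 44 h and 5.96 ± 0.346 CPM at 24 h, and its change did not pass (0.20, adjusted p = 0.321, 95% interval -0.18 to 0.59). ase fell in all genotypes, to 15.8% in E93RNAi+brRNAi, 29.5% in E93RNAi and 18.9% in control, and its interactions did not pass (adjusted p = 0.216 for E93RNAi, 0.735 for E93RNAi+brRNAi and 0.108 for added brRNAi). phyl fell less in E93RNAi (-0.54) than in control (-1.40), with an interaction of 0.86 ± 0.23 (adjusted p = 0.00573). neur rose by 0.44 in E93RNAi+brRNAi, 0.39 in E93RNAi and 0.96 in control on the log2 scale, and both RNAi genotypes rose less than control, with interactions of -0.57 ± 0.07 for E93RNAi (adjusted p = 1.45e-06) and -0.52 ± 0.07 for E93RNAi+brRNAi (adjusted p = 3.4e-06).

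Of the lineage genes, pros fell in control wings to 53.5% of its 24 h level. It did not pass in either RNAi genotype, where it stood at 94.8% in E93RNAi+brRNAi and 94.0% in E93RNAi, except with library totals (-0.35 in E93RNAi+brRNAi and -0.21 in E93RNAi on the log2 scale). Its interactions were 0.81 ± 0.11 for E93RNAi (adjusted p = 4.75e-06) and 0.82 ± 0.11 for E93RNAi+brRNAi (adjusted p = 3.91e-06). ham fell to 39.1% in E93RNAi+brRNAi, 53.7% in E93RNAi and 28.3% in control, with interactions of 0.92 ± 0.13 for E93RNAi (adjusted p = 7.19e-06) and 0.47 ± 0.14 for E93RNAi+brRNAi (adjusted p = 0.00899). sv rose slightly in E93RNAi (0.17, adjusted p = 0.0176) and control (0.32, adjusted p = 0.000266) and fell in E93RNAi+brRNAi (-0.46). The rise of sv did not pass with library totals in either genotype (0.05 in E93RNAi, 0.11 in control), and in E93RNAi it did not pass without replicate 2 of 24 h or replicate 1 or 3 of 44 h (0.11 to 0.16) or with no filter (0.13). elav fell in E93RNAi+brRNAi (-0.52) and E93RNAi (-0.51) and did not pass in control (-0.15, adjusted p = 0.233; -0.36 and called with library totals). Its difference in that change between E93RNAi and control missed the threshold (-0.36, adjusted p = 0.0773), and it passed without control replicate 3 of 24 h or of 44 h, E93RNAi replicate 2 of 24 h, E93RNAi replicate 3 of 44 h or E93RNAi+brRNAi replicate 3 of 44 h (-0.38 to -0.45), with no filter (-0.40) and with only the compared groups fitted (-0.37).

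Over the 10 genes, the interaction of time with E93RNAi was called upward for 5 and downward for 1, beside 37.9% of all genes called either way, of which 52.4% went upward (67.1% with library totals). The interaction of time with E93RNAi+brRNAi was called upward for 3 and downward for 4, beside 38.5% of all genes called, of which 51.9% went upward (42.8% with library totals). The interaction of time with added brRNAi was called upward for 1 and downward for 4, beside 33.5% of all genes called, of which 52.2% went upward (27.7% with library totals). sens was the upward gene in the last of these, and ac, sc, ham and sv were the downward ones.

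Levels of different genes are set side by side on the authors' cRPKM scale, which divides by 1 length per gene. That length was 2456 bases for elav, whose annotated transcripts run from 2248 to 10506 bases. For pros it was 22105 bases, with annotated transcripts of 5526 to 23486 bases. The places of such genes in the order below therefore depend on the length taken. The order changed between the times. At 44 h neur led in every genotype, with means of 16.4 in E93RNAi+brRNAi, 22.04 in E93RNAi and 21.84 in control, followed by elav (10.3 in E93RNAi+brRNAi, 15.8 in E93RNAi and 14.7 in control) and sv (4.37 in E93RNAi+brRNAi, 9.22 in E93RNAi and 5.94 in control). At 24 h ac was the highest in E93RNAi+brRNAi (24.2 ± 0.874) and control (22.2 ± 1.62), with sc next (21.9 ± 1.30 in E93RNAi+brRNAi and 20.3 ± 2.33 in control), and the libraries of ac, sc and elav overlapped from neighbour to neighbour in control. In E93RNAi at 24 h the order began with elav (24.3 ± 2.33), sc (23.3 ± 2.10), ac (20.3 ± 1.10), neur (18.2 ± 0.758) and sens (13.5 ± 0.920), of which elav with sc and ac with neur overlapped. sens was thus the fifth in E93RNAi at 24 h and lower in the order in both other genotypes, at 2.63 ± 0.147 in E93RNAi+brRNAi and 2.98 ± 0.660 in control. ase was last in all 6 groups, between 0.163 in E93RNAi+brRNAi at 44 h and 2.40 in E93RNAi at 24 h.

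In log2 CPM over the 18 libraries, ac and sc were the most alike pair of the 10, with a Pearson r of 0.989, and of 0.905 when each library was taken as its deviation from the mean of its time. The genes with the most similar profile to each were Kebab (r = 0.993) and Tom (0.991) for ac, z (0.991) and CG32425 (0.990) for sc, CG4880 (0.964) and fz3 (0.959) for ase, and Bcat (0.934) and mbm (0.921) for sens. They were cid (0.976) and Men-b (0.968) for phyl, Pdk1 (0.982) and Cog1 (0.978) for neur, and Cpr97Ea (0.897) and Phk-3 (0.873) for pros. They were Sdr (0.988) and net (0.987) for ham, drl (0.916) and trn (0.884) for sv, and Pi3K68D (0.977) and RhoGEF2 (0.976) for elav. Tom belongs to the Bearded family of Notch pathway modulators. All points share the libraries and the difference between 44 h and 24 h, and with the time means taken out the same pairs had r between 0.843 and 0.973, so these values are descriptions only.

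A list of 34 other sensory organ genes was described beside the 10, of which 31 were matched and 29 passed the filter. At 44 h, 17 of the 29 were higher and 3 lower in E93RNAi than in control wings, beside 20.6% of all genes tested higher and 18.9% lower, with a median of 0.55. In E93RNAi+brRNAi against E93RNAi, 1 was higher and 21 were lower, beside 24.9% and 23.9% of all genes. The median was -0.59, and -0.52 without l(1)sc, which had no counts in E93RNAi+brRNAi. In E93RNAi+brRNAi against control, 3 were higher and 6 lower, beside 23.0% and 22.6% of all genes. The median was 0.00, and -0.09 without l(1)sc, ato, cato and tap, which had no counts in control. Genes left out in this way had at most 3 counts summed over either group. For E93RNAi against control at 44 h the median was also 0.55 with l(1)sc left out and ato, cato and tap bounded. The bound set their control group, which had no counts, to 3 counts over the group. At 24 h, 13 were higher and 4 lower for E93RNAi against control (median 0.14), beside 21.7% and 22.2% of all genes. E93RNAi+brRNAi against E93RNAi had 3 higher and 13 lower at 24 h (median -0.26), beside 20.2% and 21.1% of all genes, and E93RNAi+brRNAi against control had 3 higher and 5 lower (median 0.02), beside 14.7% and 15.8%. The medians over all genes tested lay between -0.015 and 0.005 in these 6 comparisons.

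By role, the fate and differentiation genes had 6 of 8 higher in E93RNAi against control at 44 h, and the genes of division and Notch signalling had 5 higher and 1 lower of 8. Of 8 precursor genes 4 were higher and 2 lower, and of 5 proneural genes and partners 2 were higher. Over all genes tested in that comparison 20.6% were higher and 18.9% lower. These proneural genes and partners were l(1)sc, ato, cato, emc and chn. The 2 higher were chn and cato. Counts of the proneural relatives were few: cato summed to 1 count in E93RNAi+brRNAi, 12 in E93RNAi and 0 in control at 44 h. At that time ato summed to 1 count in E93RNAi+brRNAi, 5 in E93RNAi and 0 in control. tap, a gene of developing neurons, summed to 1 in E93RNAi+brRNAi, 23 in E93RNAi and 0 in control. l(1)sc, the neighbour of sc, summed to 0 counts in E93RNAi+brRNAi, 1 in E93RNAi and 0 in control at 44 h, and to 26 in E93RNAi+brRNAi, 42 in E93RNAi and 15 in control at 24 h.

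At 44 h nerfin-1, a zinc finger gene of neuronal precursors, averaged 3.36 ± 0.493 CPM in E93RNAi+brRNAi, 9.22 ± 0.891 CPM in E93RNAi and 1.11 ± 0.208 CPM in control. Its log2 fold change was 3.04 ± 0.22 for E93RNAi against control (adjusted p = 4.08e-11) and -1.46 ± 0.16 for E93RNAi+brRNAi against E93RNAi (adjusted p = 1.38e-07). For E93RNAi+brRNAi against control it was 1.58 ± 0.24 (adjusted p = 8.97e-06), so nerfin-1 was above control in both RNAi genotypes. dpn, a helix-loop-helix repressor of neural progenitors, averaged 3.69 ± 1.36 CPM in E93RNAi+brRNAi, 8.67 ± 0.258 CPM in E93RNAi and 3.06 ± 0.489 CPM in control. It was higher in E93RNAi than in control (1.51 ± 0.16, adjusted p = 6.55e-08) and lower in E93RNAi+brRNAi than in E93RNAi (-1.22 ± 0.15, adjusted p = 9.67e-07). Poxn, the Pax gene of chemosensory bristles, was higher in E93RNAi (10.95 ± 0.690 CPM) than in control (4.99 ± 0.565 CPM), by 1.13 ± 0.11 (adjusted p = 4e-08).

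insc, which orients the division of neural precursors, went the other way. It averaged 41.5 ± 2.79 CPM in E93RNAi+brRNAi, 27.5 ± 0.514 CPM in E93RNAi and 78.8 ± 5.05 CPM in control at 44 h, with -1.52 ± 0.08 for E93RNAi against control (adjusted p = 1.9e-12), 0.59 ± 0.08 for E93RNAi+brRNAi against E93RNAi (adjusted p = 3.9e-06) and -0.93 ± 0.07 for E93RNAi+brRNAi against control (adjusted p = 1.93e-09). Others named by smallest adjusted p at 44 h were cpo (0.59) and chn (0.55) for E93RNAi against control, ct (-0.82), pon (-0.83) and chn (-0.46) for E93RNAi+brRNAi against E93RNAi, and ttk (-0.59), H (-0.40), ebi (-0.33) and N (-0.33) for E93RNAi+brRNAi against control. ttk encodes the Tramtrack repressor on which phyl and ebi act.

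At 24 h nompA, which encodes a matrix protein of the mechanosensory dendrite, averaged 107 ± 10.6 CPM in E93RNAi+brRNAi, 80.8 ± 2.45 CPM in E93RNAi and 44.6 ± 0.699 CPM in control. It rose in both RNAi genotypes against control, by 1.26 ± 0.06 in E93RNAi+brRNAi (adjusted p = 3.84e-12) and 0.86 ± 0.06 in E93RNAi (adjusted p = 1.35e-09), and was higher in E93RNAi+brRNAi than in E93RNAi (0.40, adjusted p = 2.49e-05). futsch, a microtubule-binding protein of neurons, averaged 56.0 ± 6.73 CPM in E93RNAi+brRNAi, 91.4 ± 13.3 CPM in E93RNAi and 49.0 ± 1.71 CPM in control. It was higher in E93RNAi than in control (0.90 ± 0.13, adjusted p = 2.34e-05) and lower in E93RNAi+brRNAi than in E93RNAi (-0.71 ± 0.13, adjusted p = 0.000278). nerfin-1 had the same order, with 13.3 ± 2.01 CPM in E93RNAi+brRNAi, 20.1 ± 2.37 CPM in E93RNAi and 12.6 ± 0.970 CPM in control. The rest named at 24 h were cpo (0.68), ct (0.46) and Sox15 (-0.49) for E93RNAi against control, pon (-0.40), chn (-0.38) and mira (-0.57) for E93RNAi+brRNAi against E93RNAi, and pon (-0.49), insc (0.81), cpo (0.41), Poxn (-0.51) and mira (-0.61) for E93RNAi+brRNAi against control.

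**Figure D4:**
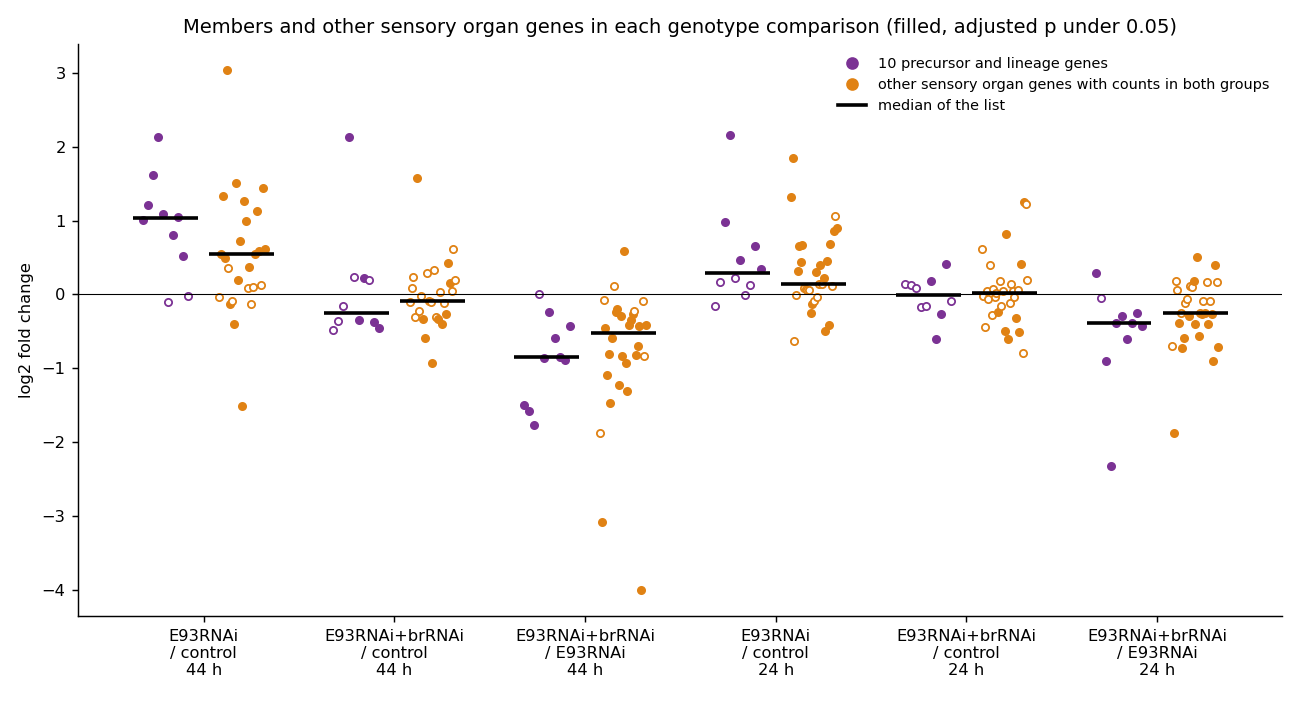
Log2 fold changes of the 10 genes (purple) and of the other sensory organ genes with counts in both groups (orange) in 6 genotype comparisons, 44 h left of 24 h. Filled points passed an adjusted p of 0.05 and bars are medians of each list. In E93RNAi against control at 44 h the medians are 1.03 and 0.55, and in E93RNAi+brRNAi against control at 44 h they are -0.25 and -0.09. All orange medians at 44 h leave out l(1)sc. The 0.55 has ato, cato and tap at their bound, and the -0.09 leaves them out.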

How the data were processed

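Poly(A) RNA of pupal wings was sequenced as single reads of 51 bases from directional libraries, per the labels' protocols. The authors deposited, per library, raw read counts per gene and cRPKM values, an RPKM that the deposited values show to be the count scaled by library total and gene length. The submitters' processing notes name dm6; for the aligner, the counter and the strand setting, nothing is given in the sources used here. Of 14489 listed genes, 13731 had values and 13511 matched a symbol in the BDGP6 annotation (Ensembl); 220 did not, br among them. Library totals of 17627937 to 22940404 make 1 count worth 0.0436 to 0.0567 CPM. Counting error alone is covered by any statement on depth, since PCR copies were not marked.

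Counts were fitted with edgeR 4.0.16 in R 4.3.3 (TMM, filterByExpr, quasi-likelihood F test) on all 18 libraries with 1 mean per group, and p-values were adjusted by Benjamini-Hochberg over 9672 genes at 0.05. SE and 95% intervals use the fitted quasi-dispersion. The common biological coefficient of variation was 5.99%. The fit was tested on simulated counts. Alternatives were other scalings, DESeq2 1.42.0, no filter, a replicate block, only the compared groups, and each library left out. Likeness used log2 CPM with a prior count of 2. The named genes were the 10 members, up to 6 other sensory organ genes per genotype comparison by smallest adjusted p, the 2 most correlated genes per member, the genes of the group check, and cell type markers. CG32816 and Cals were added for their overlap, and ato, cato, tap and l(1)sc for their low counts, after their values were seen. Members and lists were chosen with earlier results of these data known.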

Additional observations from a re-analysis of the deposited data

Results flagged for a closer look

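The genotype differences of several genes changed between 44 h and 24 h by an edgeR interaction test with Benjamini-Hochberg adjustment over all genes, with 3 libraries in each group. Values are log2 differences at 44 h minus those at 24 h. For E93RNAi against control they were 1.17 for ac (adjusted p = 4.22e-05), 1.04 for sc (1.57e-05), 0.86 for phyl (0.00573), -0.57 for neur (1.45e-06), 0.81 for pros (4.75e-06) and 0.92 for ham (7.19e-06). For E93RNAi+brRNAi against control they were -0.62 for ac (0.0313), -0.48 for sc (0.0357), 2.30 for sens (3.72e-06), -0.52 for neur (3.4e-06), 0.82 for pros (3.91e-06), 0.47 for ham (0.00899) and -0.78 for sv (1.37e-06). For E93RNAi+brRNAi against E93RNAi they were -1.79 for ac (5.18e-07), -1.53 for sc (2.36e-07), 2.33 for sens (2.75e-07), -0.46 for ham (0.0074) and -0.64 for sv (1.85e-05). The 3 sets share libraries.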

How the results depend on the processing

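Over 24 alternatives (18 of which left out 1 library), 84 of 120 member tests were called, 75 of these kept call and direction in every alternative, 9 lost the call in at least 1, and 0 reversed; 10 of the 36 not called passed in some. The counts of members called and of all genes called moved by less than 1.5 times. Library totals in place of TMM shifted the median log2 fold change of all genes by 0.11 for E93RNAi against control and -0.19 for E93RNAi+brRNAi against E93RNAi at 44 h, by -0.27 in E93RNAi+brRNAi, -0.12 in E93RNAi and -0.21 in control for 44 h against 24 h, and by -0.15 for the interaction with added brRNAi. Differences smaller than these shifts rest on the scaling.

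Signs changed only in tests that were not called, and the cause was not tested. With library totals, sens was -0.18 (E93RNAi+brRNAi against E93RNAi, 44 h), -0.0675 (44 h against 24 h in E93RNAi+brRNAi) and 0.0686 (time by E93RNAi), neur 0.01 (E93RNAi against control, 44 h) and -0.11 (time by added brRNAi), pros 0.0131 (E93RNAi against control, 24 h) and -0.14 (time by added brRNAi), and elav 0.0944 (E93RNAi against control, 44 h). For pros at 24 h the value was 0.0026 with DESeq2's size factors, 0.0027 with DESeq2 and 0.0224 with no filter, and for elav, time by added brRNAi, 0.0128, 0.0133 and 0.0308. With 1 library left out, values ranged as follows. E93RNAi+brRNAi against E93RNAi ran from -0.11 to 0.0161 for sc at 24 h and from -0.25 to 0.18 for sens at 44 h. E93RNAi+brRNAi against control ran from -0.10 to 0.38 for ase and -0.31 to 0.0179 for sens at 24 h, and from -0.30 to 0.19 for ase at 44 h. E93RNAi against control ran from -0.0879 to 0.0787 for pros at 24 h and from -0.0921 to 0.0656 for elav at 44 h. sens at 44 h against 24 h in E93RNAi+brRNAi ran from -0.0585 to 0.37. Interactions ran from -0.53 to 0.10 for ase (time by E93RNAi+brRNAi), -0.22 to 0.29 for sens (time by E93RNAi), and -0.0232 to 0.0797 for pros and -0.0924 to 0.15 for elav (time by added brRNAi).

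Replicate numbers did not pair the libraries: same-numbered libraries of different groups had a median correlation of deviations of -0.02 over 45 pairs (none above 0.1). Pairs with different numbers had a median of 0.00704 over 90 pairs, of which 4 were above 0.1 (highest 0.13). A grouping of libraries other than by replicate number was not tested. With the replicate number as a block, members called were 8 at 44 h and 5 at 24 h for E93RNAi against control, 5 and 4 for E93RNAi+brRNAi against control, and 9 and 9 for E93RNAi+brRNAi against E93RNAi, the same counts as without it. ase at 44 h could not be fitted for E93RNAi+brRNAi against control with only those groups, being filtered out; it had 5 to 13 counts per library there.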
